A study of Mus musculus with 4 samples.

Results

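This account covers 10 mouse genes of the cytotoxic granule, described by role as granzymes (Gzma, Gzmb, Gzmc, Gzmk and Gzmm), perforin and other granule components (Prf1, Nkg7 and Ctsw) and serpin inhibitors of granzymes (Serpinb6b and Serpinb9). They were taken by symbol from the 25509 genes in a table of estimated RNA-sequencing counts, and each of the 10 had 1 row. The cells were 2 Batf3-/- and 2 WT samples of splenic naive CD4+ T cells, sorted as CD62L high and CD44 low without CD25. Cells of both genotypes were stimulated for 72 h with anti-CD3 and anti-CD28 antibodies, TGFb, IL-4 and TL1A, a mixture that drives the TH9 state of interleukin 9 secretion. The knockout lacks BATF3, a basic leucine zipper factor of the AP-1 superfamily, and the labels state neither the allele, the cell type in which it is deleted nor the age of the mice. Nor do they give the animals or cultures behind each replicate, so p-values here reflect no more than the spread among these 4 samples.

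Cytotoxic lymphocytes store granzymes, a family of serine proteases, in lysosome-like granules together with the pore-forming protein perforin. On contact with a target cell the granules are released, perforin opens the membrane and granzymes enter and cleave intracellular proteins. The lymphocyte protects its own cytosol with serpins, proteins that trap a protease as it cuts them. Activated CD4+ helper T cells can also transcribe granzyme genes, with or without perforin.

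Gzmb was the one granzyme with more than trace RNA in these cultures, and the inhibitor gene Serpinb6b and the protease gene Ctsw were the other members above 20 CPM (counts-per-million units) in each library. Prf1 was at about 1 CPM or lower, Gzma and Gzmm were at 8 counts or fewer in each library, and Gzmk had no count in any library. Of the 10 genes, 7 had enough counts for the test between Batf3-/- and WT cells and 0 of these passed it, where 16 of 12135 tested genes did (0.132%, adjusted p under 0.05, edgeR). Gzmb averaged 109 ± 8.30 CPM in Batf3-/- cells and 85.3 ± 9.26 CPM in WT cells (SD, n = 2 each), a ratio of 1.28 with a 95% interval of 0.977 to 1.68.

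Total counts per library were 15624874 to 31098059, with Batf3-/- replicate 2 the shallowest. Batf3 itself stood at 0.535 and 0.517 CPM in Batf3-/- replicates 1 and 2, against 61.7 and 60.5 CPM in WT replicates 1 and 2, as the labels imply. Xist, the RNA of the inactive X chromosome, was at 0.0944 and 0.214 CPM in replicate 1 of Batf3-/- and WT and at 144 and 166 CPM in replicate 2. Together, Kdm5d, Uty, Ddx3y and Eif2s3y of the Y chromosome stood at 243 and 182 CPM in Batf3-/- replicates 1 and 2. Their sum was 344 and 146 CPM in WT replicates 1 and 2. Replicate 2 of both genotypes thus held Xist as well as Y chromosome RNA, and the sex of the mice was not tested. Same-numbered samples share their Xist level, and they also share a title prefix (E85 or E87) whose meaning the labels do not give. Ratios within each number are given for the members in which they differ in sign, for Gzmb and, beside the members, for Foxp3.

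The start regions of the neighbouring genes Gzmb and Gzmc are shown because they were the member windows with a match, on either strand, to the AP-1 or cyclic AMP response motif, which basic leucine zipper factors bind. Both lie on the minus strand of chromosome 14 (RefSeq, GRCm38.p6, 250 bases before to 50 after the annotated start, 5′ to 3′), with the match in capitals.
Gzmb, chr14:56262285-56262584: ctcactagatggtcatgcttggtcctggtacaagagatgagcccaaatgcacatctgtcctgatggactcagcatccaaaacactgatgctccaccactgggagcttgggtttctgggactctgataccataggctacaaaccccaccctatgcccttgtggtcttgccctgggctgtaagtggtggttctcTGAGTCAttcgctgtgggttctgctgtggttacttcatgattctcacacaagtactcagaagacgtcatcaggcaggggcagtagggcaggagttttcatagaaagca
Gzmc, chr14:56234608-56234907: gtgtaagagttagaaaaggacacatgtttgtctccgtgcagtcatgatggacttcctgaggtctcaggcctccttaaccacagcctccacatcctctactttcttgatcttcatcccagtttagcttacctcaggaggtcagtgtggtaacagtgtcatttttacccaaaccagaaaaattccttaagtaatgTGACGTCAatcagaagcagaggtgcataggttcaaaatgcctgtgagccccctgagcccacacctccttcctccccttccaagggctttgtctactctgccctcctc

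The capitals in Gzmb are an AP-1 match (TGANTCA) whose first base lies at -58 from the RefSeq start and at -132 from the start that GENCODE M21 gives. Those in Gzmc are a cyclic AMP response element (TGACGTCA) at -57 from the RefSeq start. RefSeq windows were found for 9 of the 10 members (10 windows, with 2 for Gzmm), and Ctsw had none. Of these windows 1 held the AP-1 motif and 1 the cyclic AMP element, against 7.81% and 1.79% of 32851 start regions of the same length. No member window held the AP-1 motif joined to an interferon regulatory factor motif, searched on both strands as TTTC followed after 4 bases by TGANTCA, or GAAA followed directly by it, which 0.119% and 0.125% of start regions held. Gzmb also held the RUNX core TGTGGT at -93 and -34 from the RefSeq start. On either strand, windows of Gzma, Gzmc, Gzmm, Prf1, Nkg7 and Serpinb9 held the same core too. It was found in 16.8% of start regions. In Serpinb9 the core lay at 11 from the RefSeq start but at 1302 from the GENCODE M21 start. The T-box motif TCACACCT, held by 1.28% of start regions, was found in Nkg7 alone among the members. There it lay on the opposite strand, at -14 from the RefSeq start and 52 from the GENCODE M21 start. A STAT-type match TTCNNNGAA lay at 38 from the RefSeq start of Gzmb, or at -37 from the GENCODE M21 start. Windows of Nkg7 and Gzmm held such a match too, as did 8.3% of start regions. These letters are descriptions of the windows, and binding was not measured here.

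Gzmb (ENSMUSG00000015437.4, GRCm38 chromosome 14, 56258838 to 56262260, protein coding) encodes granzyme B, which cleaves after aspartate and activates caspases. It had 3656 and 1598 counts in Batf3-/- replicates 1 and 2, against 2142 and 2160 counts in WT replicates 1 and 2. Normalised for library size these were 115 and 103 CPM in Batf3-/- cells and 91.8 and 78.7 CPM in WT cells. Both Batf3-/- libraries lay above both WT libraries. By edgeR's quasi-likelihood test over 12135 genes the log2 fold change of 0.36 (SE 0.187) did not pass, at an unadjusted p of 0.0709 and an adjusted p of 0.958. The log2 ratio was 0.33 within replicate number 1 and 0.39 within replicate number 2.

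Per kilobase of exon, Gzmb stood at 80.1 and 72.0 CPM per kb in Batf3-/- cells and at 63.9 and 54.8 CPM per kb in WT cells. This placed it at ranks 537 and 596 in the Batf3-/- libraries and 698 and 804 in the WT libraries, of 16095 genes with a count and a length. Among tested genes whose log2 CPM averaged 2 or more, the 3 whose centred log2 CPM over the 4 libraries lay nearest to that of Gzmb were Cd99l2, Gpx4 and Rab4b. Their root mean square distances were 0.00810, 0.0194 and 0.0230 on the log2 scale, from 9792 genes compared, and 4 libraries leave room for many such likenesses.

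Gzmc (ENSMUSG00000079186.2, chromosome 14, 56231441 to 56234656) lies next to Gzmb and encodes granzyme C, which in mice is made by activated killer cells. It had 41 and 2 counts in Batf3-/- replicates 1 and 2, against 6 and 22 counts in WT replicates 1 and 2. The genotypes overlapped, and the highest and the lowest of the 4 values were both Batf3-/-. In edgeR its log2 fold change of 0.65 had an SE of 0.724 (adjusted p = 0.958). The value was -2.03 without Batf3-/- replicate 1, and the log2 ratios within replicates 1 and 2 were 2.24 and -2.46, so no direction could be given for this gene.

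The other 3 granzymes of the set did not reach the minimum for testing. Gzma (chromosome 13, 113093825 to 113100981), a tryptase that is abundant in killer cells, had 3 and 1 counts in Batf3-/- cells and 3 and 2 counts in WT cells. Its neighbour Gzmk (chromosome 13, 113171608 to 113225908), a second tryptase, had 0 counts in all 4 libraries. A count of 0 allows a level of up to 0.0944 and 0.194 CPM in Batf3-/- replicates 1 and 2 and up to 0.129 and 0.109 CPM in WT replicates 1 and 2, at 3 counts per library. Gzmm (chromosome 10, 79689020 to 79695261), which cleaves after methionine or leucine, had 8 and 3 counts in Batf3-/- cells against 1 and 3 counts in WT cells. These values are too few to compare.

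Counts of all 10 listed granzyme genes were also added, so that reads shared between paralogs would stay together. They came to 119 and 103 CPM of the unscaled library totals in Batf3-/- cells and to 90.8 and 80.2 CPM in WT cells. Gzmb made up 98.5% (Wilson 95% interval 98.1% to 98.9%) and 99.6% (99.1% to 99.8%) of granzyme counts in Batf3-/- replicates 1 and 2. The shares in WT replicates 1 and 2 were 99.3% (98.9% to 99.6%) and 98.7% (98.2% to 99.1%). These intervals and floors hold counting error alone, as PCR duplicates could not be set apart. Every one of the 40 member values was a whole number, among them the 4 values of 0 for Gzmk. Reads divided between loci leave fractions, but whole values do not show that no read was shared.

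Gzmb and Gzmc belong to a row of 15 granzyme and mast cell protease genes that spans 321 kb. Gzmf had 2 and 1 counts in Batf3-/- cells and 5 and 1 counts in WT cells. The other 12 genes were at 0 in all 4 libraries, and they include Gzmd, Gzme, Gzmg, Gzmn, the mast cell chymase genes and Ctsg, which encodes neutrophil cathepsin G. Gzmb, at the end of the row, was the one gene with at least 10 counts in every library.

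**Figure D1:**
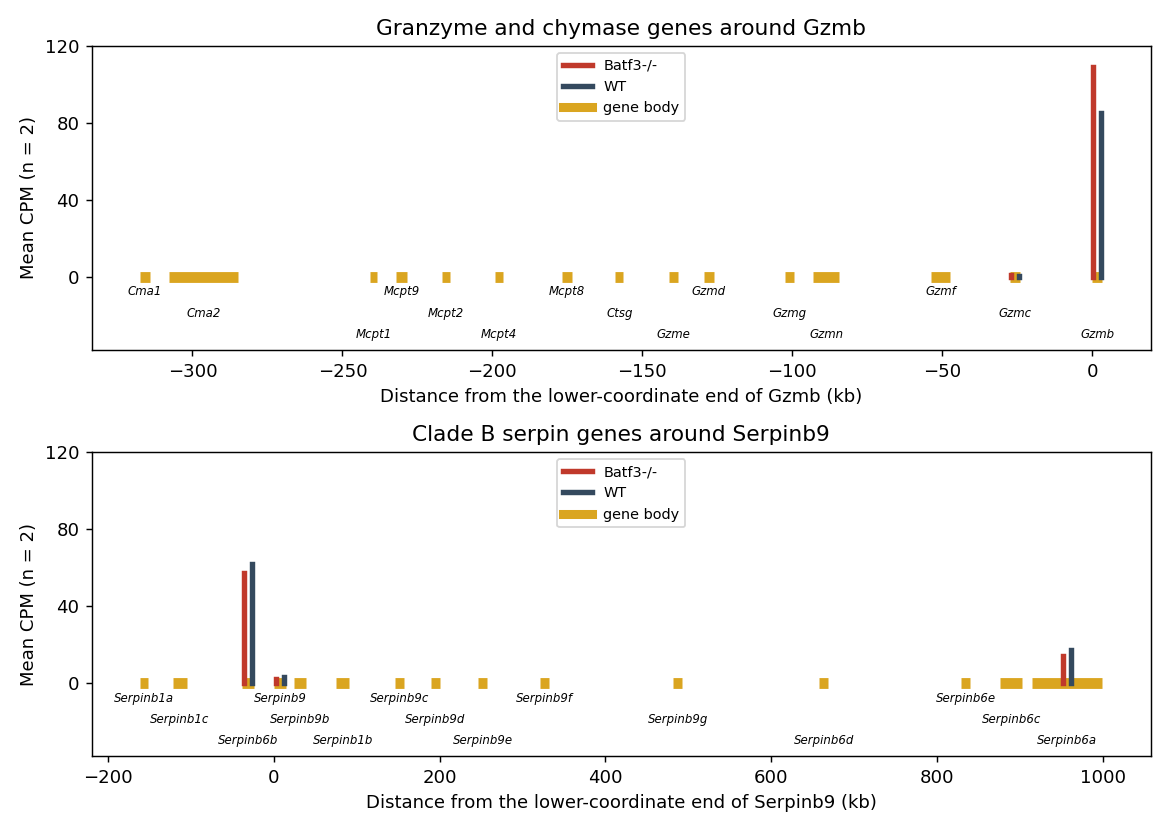
Mean CPM of 2 libraries (vertical axis) for Batf3-/- (red) and WT (dark blue) at protein-coding genes drawn by distance in kb along the chromosome, with gene bodies in gold. In the upper panel the signal stands at Gzmb, with a mean of 109 CPM in Batf3-/- and 85.3 CPM in WT cells, and in the lower panel at Serpinb6b, Serpinb6a and, at low level, Serpinb9.

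Of the other granule components, Prf1 (ENSMUSG00000037202.5, chromosome 10, 61297833 to 61304680) encodes perforin. It had 22 and 16 counts in Batf3-/- cells and 10 and 19 counts in WT cells, or 0.692 and 1.03 CPM against 0.429 and 0.693 CPM. The lower Batf3-/- library and the higher WT library were nearly equal. In edgeR the adjusted p was 0.958 for a log2 fold change of 0.52 (SE 0.579), and the 95% interval of -0.69 to 1.73 leaves the difference undetermined at this depth. Per kilobase, Gzmb was 299 and 180 times Prf1 in Batf3-/- replicates 1 and 2, and 385 and 205 times Prf1 in WT replicates 1 and 2.

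Nkg7 (ENSMUSG00000004612.9, chromosome 7, 43437073 to 43438249) encodes a granule membrane protein needed for efficient degranulation. It had 79 and 40 counts in Batf3-/- cells and 46 and 51 counts in WT cells. These were 2.49 and 2.59 CPM in Batf3-/- libraries and 1.97 and 1.86 CPM in WT libraries, which did not overlap. Their log2 difference of 0.40 (SE 0.363, 95% interval -0.36 to 1.16) did not pass in edgeR, with an adjusted p of 0.958.

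Ctsw (ENSMUSG00000024910.4, chromosome 19, 5465043 to 5468507) encodes cathepsin W, a cysteine protease found mainly in cytotoxic lymphocytes. It was at 27.9 and 37.4 CPM in Batf3-/- cells and 31.1 and 29.1 CPM in WT cells. The lowest and the highest library were both Batf3-/-. Between genotypes edgeR gave 0.11 on the log2 scale (SE 0.211, 95% interval -0.33 to 0.56, adjusted p = 0.973), and the log2 ratios within replicates 1 and 2 were -0.15 and 0.36. The end of Ctsw overlaps the end of Fibp on the opposite strand by a few bases, and the strand setting of the counting is not given in the sources used here.

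Serpinb6b (ENSMUSG00000042842.10, chromosome 13, 32965209 to 32979067) encodes a serpin that inhibits mouse granzyme A. It stood at 63.9 and 50.7 CPM in Batf3-/- replicates 1 and 2 and at 80.9 and 42.9 CPM in WT replicates 1 and 2. The WT libraries lay on both sides of the Batf3-/- libraries, and replicate 1 was higher than replicate 2 in both genotypes. In edgeR the log2 fold change of -0.11 (SE 0.261, 95% interval -0.67 to 0.45) had an adjusted p of 0.976. Leaving out WT replicate 1 turned it to 0.41 and leaving out WT replicate 2 gave -0.50, each with 1 WT library left, while 0.05 was found without Batf3-/- replicate 2. The log2 ratios within replicates 1 and 2 were -0.34 and 0.24. Xist differed between the replicate numbers too, and its part in this gene's values was not tested.

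Serpinb9 (ENSMUSG00000045827.10, chromosome 13, 33003250 to 33017957) lies beside Serpinb6b and encodes an intracellular inhibitor of granzyme B. It had 86 and 24 counts in Batf3-/- cells and 90 and 81 counts in WT cells. These were 2.71 and 1.55 CPM in Batf3-/- libraries, both below the 3.86 and 2.95 CPM of the WT libraries. A log2 fold change of -0.60 (SE 0.364, 95% interval -1.36 to 0.16) did not pass in edgeR, with an unadjusted p of 0.116 and an adjusted p of 0.958. The change was -1.13 without Batf3-/- replicate 1, the deeper of the knockout libraries, and -0.32 without Batf3-/- replicate 2. Per kilobase, Gzmb was 103 and 162 times Serpinb9 in Batf3-/- replicates 1 and 2 and 57.9 and 64.9 times in WT replicates 1 and 2.

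**Figure D2:**
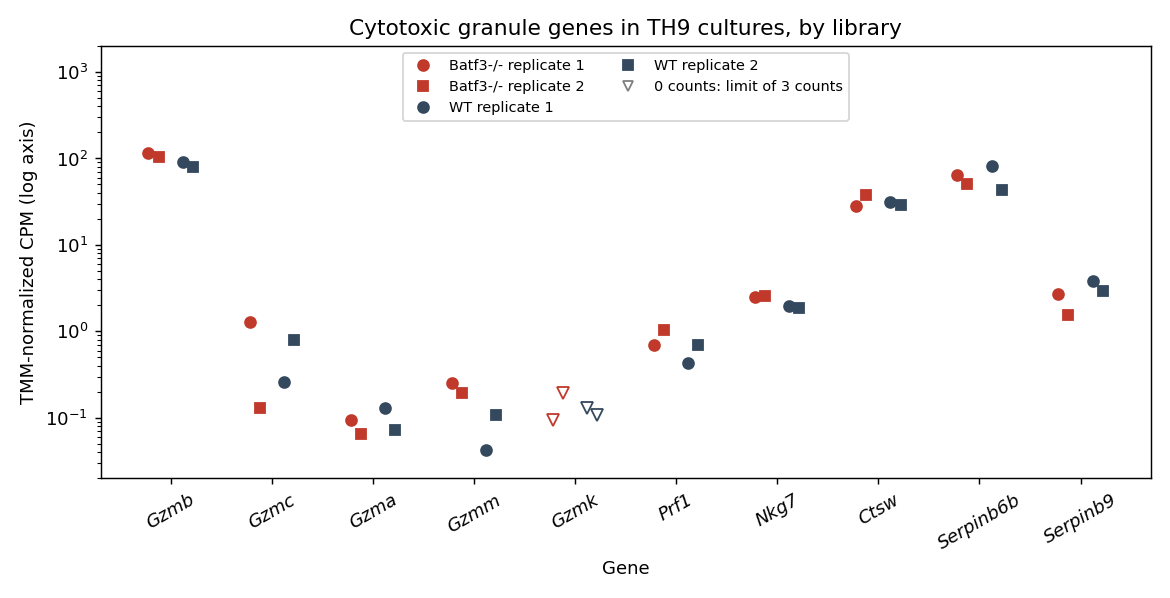
TMM-normalized CPM on a log axis for each of the 10 genes, with 1 point per library, Batf3-/- (red) left of WT (dark blue), circles for replicate 1 and squares for replicate 2. Open triangles mark the level that 3 counts would give for Gzmk, which had 0 counts. The Batf3-/- points lie above the WT points for Gzmb and Nkg7 and below them for Serpinb9.

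In level per kilobase over the 4 libraries the order of means was Gzmb, Serpinb6b, Ctsw, Nkg7, Serpinb9, Gzmc, Prf1, Gzmm, Gzma and Gzmk. Gzmb (54.8 to 80.1 CPM per kb) did not overlap with Serpinb6b (19.0 to 35.8), and Ctsw (14.8 to 19.8) did not overlap with Nkg7 (2.03 to 2.83). Nkg7 also lay above the range of Serpinb9 (0.444 to 1.10). Serpinb6b and Ctsw overlapped in range but stood in this order in all 4 libraries, or in all but Batf3-/- replicate 2 with the longest transcript as length. From Serpinb9 down to Gzma, each gene's range overlapped that of the next one, and Serpinb9 was above Gzmc in 2 libraries of the 4.

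For testing, 7 of the 10 genes had enough counts and Gzma, Gzmk and Gzmm did not. Of the 7, 0 passed at an adjusted p of 0.05 in edgeR, against 0.132% of all 12135 tested genes (16 genes). An unadjusted p under 0.05 was found for 0 of the 7, against 4.8% of all tested genes, and DESeq2 and limma-voom gave 0 of the 7 past the threshold as well. Positive log2 fold changes were found for 5 of the 7 and for 48.4% of all tested genes. The median was 0.36 for the 7 and -0.01 for all tested genes. Batf3-/- and WT libraries did not overlap for 3 of the 7, a share seen in 33.8% of all tested genes. Gzmb and Nkg7 were higher in Batf3-/- cells (18.2% of tested genes were separated this way) and Serpinb9 was lower (15.6%). Intervals for single genes still allow changes, up to 1.68-fold higher for Gzmb and down to 0.389 of the WT level for Serpinb9.

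**Figure D3:**
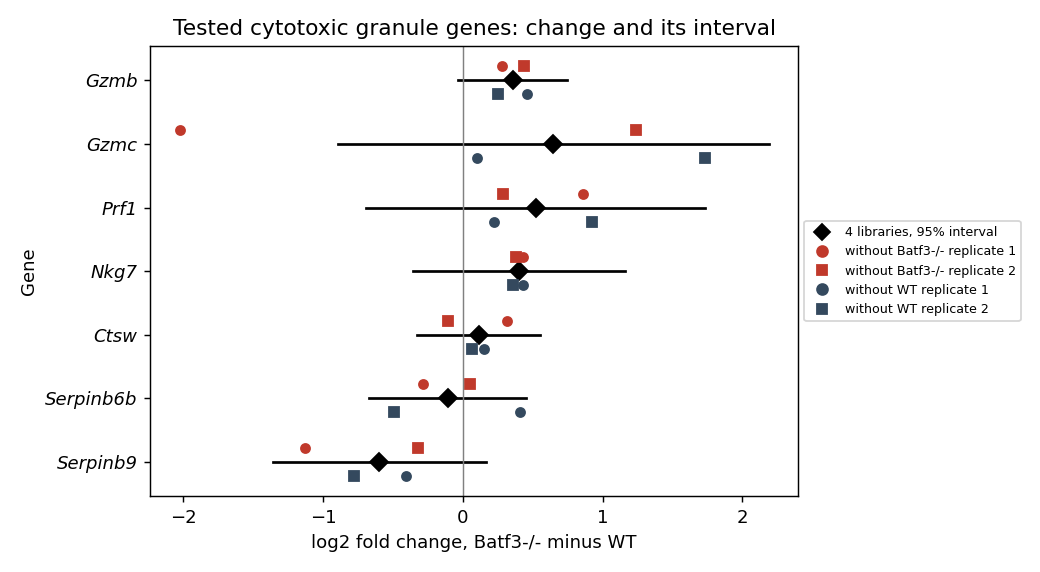
Log2 fold change of Batf3-/- minus WT for the 7 tested genes (black diamonds) with 95% intervals (lines), and the values when 1 library is left out, with red points above the line for a Batf3-/- library and dark blue points below it for a WT library. Every interval includes 0. Gzmc ranges from -2.03 to 1.73 with 1 library left out, while Gzmb stays between 0.25 and 0.46.

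Markers of other cells that make granzymes were measured in the same libraries. Of 12 natural killer and innate-like markers, 6 were at 0 in all libraries, including Ncr1, Klrb1c, Tyrobp and Fcer1g. Their summed level was 1.55 to 1.76 CPM in Batf3-/- cells and 1.53 to 2.14 CPM in WT cells, and Crtam, an activation receptor, was the one marker with enough counts to test (log2 fold change 0.37, adjusted p = 0.958, edgeR). Cd8a, which marks killer T cells, had 3 and 1 counts in Batf3-/- cells and 4 and 5 counts in WT cells. Cd8b1 was at 7.33 and 7.24 CPM in Batf3-/- cells and 8.92 and 8.31 CPM in WT cells. Of 8 mast cell and basophil markers 7 were at 0 throughout, and Kit stood at 1.73 and 4.59 CPM in Batf3-/- cells and 4.37 and 2.22 CPM in WT cells. The 5 CD4 T cell markers summed to 1397 and 1472 CPM in Batf3-/- cells and 1528 and 1349 CPM in WT cells. Their log2 fold changes were 2 positive and 3 negative, with Cd3d at -0.22 and Cd3e at -0.17, and none passed in edgeR. Of these markers, Cd4 was at 530 and 536 CPM in Batf3-/- cells and 553 and 474 CPM in WT cells. In bulk RNA, fewer cells that express a gene and less RNA of it per cell cannot be told apart.

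Markers of more distant cell types were low as well. Summed levels ranged, over the 4 libraries, from 9.88 to 13.2 CPM for 5 B cell markers, nearly all of it Cd79b, with Ms4a1 at 0. Lyz2, a defining myeloid gene, was at 0 in all libraries, and the 5 myeloid markers, among which Cd68 was the largest, summed to 3.24 to 4.55 CPM. The 5 dendritic cell markers summed to 6.66 to 9.43 CPM, mostly Zbtb46, with Clec9a at 0. The 3 erythroid markers summed to at most 0.142 CPM. The 6 markers of the TH9 culture summed to 3368 and 3041 CPM in Batf3-/- cells and 2954 and 4218 CPM in WT cells. Of these, Il9 was at 932 and 773 CPM in Batf3-/- cells and 978 and 1559 CPM in WT cells (adjusted p = 0.898, edgeR).

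Of the listed genes for packing and releasing granzymes, 24 were tested and 0 passed. Over all 12135 tested genes 0.132% passed in edgeR and 48.4% had a positive log2 fold change. These shares are also the background for the gene lists that follow. Of 11 genes for granule matrix and activating proteases 10 were tested, with 5 positive and 5 negative log2 fold changes (median 0.01). Srgn encodes serglycin, the proteoglycan that binds granzymes in the granule, and was at 465 and 443 CPM in Batf3-/- cells and 760 and 529 CPM in WT cells. In edgeR the adjusted p of its log2 fold change of -0.51 (SE 0.208) was 0.940, from an unadjusted 0.0255, and both Batf3-/- libraries were lower than both WT libraries. Ctsl, encoding cathepsin L, had a log2 fold change of -0.23 (adjusted p = 0.958).

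Of 15 genes for granule biogenesis and release, 14 were in the table and tested, with 6 positive and 8 negative (median -0.06). Unc13d, which encodes the priming factor Munc13-4, was at 103 and 111 CPM in Batf3-/- cells and 68.9 and 97.4 CPM in WT cells (log2 fold change 0.36, SE 0.200, adjusted p = 0.958, edgeR). Lyst, the gene of Chediak-Higashi syndrome, was at 17.9 and 35.0 CPM in Batf3-/- cells and 34.6 and 37.3 CPM in WT cells, a log2 fold change of -0.46 (adjusted p = 0.958).

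Other serpins were mostly silent: of 16 listed genes 9 were at 0 in all libraries and 3 were tested, each with a negative log2 fold change (median -0.41) and none past the threshold in edgeR. Serpina3g, an inhibitor expressed in mouse T cells, was at 27.9 and 18.3 CPM in Batf3-/- cells and 22.0 and 39.7 CPM in WT cells, with overlapping groups and fractional counts, as left by reads divided among loci. Serpinb6a, another clade B inhibitor, was at 14.7 and 13.9 CPM in Batf3-/- cells and 19.4 and 15.5 CPM in WT cells, also with fractional counts (log2 fold change -0.28, SE 0.226, adjusted p = 0.958, edgeR). Of 15 clade B serpin genes in the 1161 kb around Serpinb9, Serpinb6b, Serpinb9 and Serpinb6a were the 3 with at least 10 counts in every library, and 10 were at 0.

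Proteins that granzymes cut or that kill by other routes were transcribed without a difference past the threshold in edgeR. Of 18 genes for granzyme substrates and target cell death 7 were positive and 11 negative (median -0.06), with Lmna, encoding lamin A, at 0.48 (SE 0.232, adjusted p = 0.958) and Casp8, encoding an initiator caspase, at -0.35 (SE 0.199, adjusted p = 0.958). Of 6 death ligands and receptors 2 were positive and 4 negative (median -0.08). Fasl, the ligand of a perforin-independent killing route, stood at 16.1 and 11.6 CPM in Batf3-/- cells and 14.1 and 9.95 CPM in WT cells. Its receptor gene Fas stood at 18.6 and 19.5 CPM in Batf3-/- cells and 29.2 and 17.2 CPM in WT cells. Both pairs overlapped.

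Possible regulators of granzyme genes were listed as 30 transcription factors and 15 cytokine receptors, and their role in granzyme transcription was not tested. Of 28 tested factors 13 were positive and 15 negative (median -0.01), and 1 passed, the deleted gene Batf3 itself (log2 fold change -6.84, SE 0.297, adjusted p = 3.80e-11, edgeR). Foxp3, the factor that defines regulatory T cells, was named after its values were seen. It stood at 29.2 and 21.0 CPM in Batf3-/- replicates 1 and 2 and at 9.81 and 17.7 CPM in WT replicates 1 and 2, without overlap. Its log2 fold change of 0.87 (SE 0.269, 95% interval 0.30 to 1.44) had an unadjusted p of 0.00493 and did not pass in edgeR (adjusted p = 0.593). The log2 ratio of Foxp3 was 1.57 within replicate number 1 and 0.25 within replicate number 2, against 0.33 and 0.39 for Gzmb. WT replicate 1 was the lower WT library for Foxp3 and the higher one for Gzmb. Foxp3 also had fractional counts. Regulatory T cells can express Gzmb, which was also higher in both Batf3-/- libraries. The part of Foxp3-expressing cells in the Gzmb values was not tested. Eomes, a T-box factor of killer cells and one of the 2 untested factors, had 11 and 1 counts in Batf3-/- cells and 6 and 12 counts in WT cells and was named after its values were seen. Of 15 tested receptor genes 9 were positive and 6 negative (median 0.11) and 0 passed. Il12rb1, a subunit of the interleukin 12 receptor, stood at 0.41 on the log2 scale (SE 0.203, adjusted p = 0.958), and Il18r1, a subunit of the interleukin 18 receptor, at -0.41 (SE 0.212, adjusted p = 0.958).

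**Figure D4:**
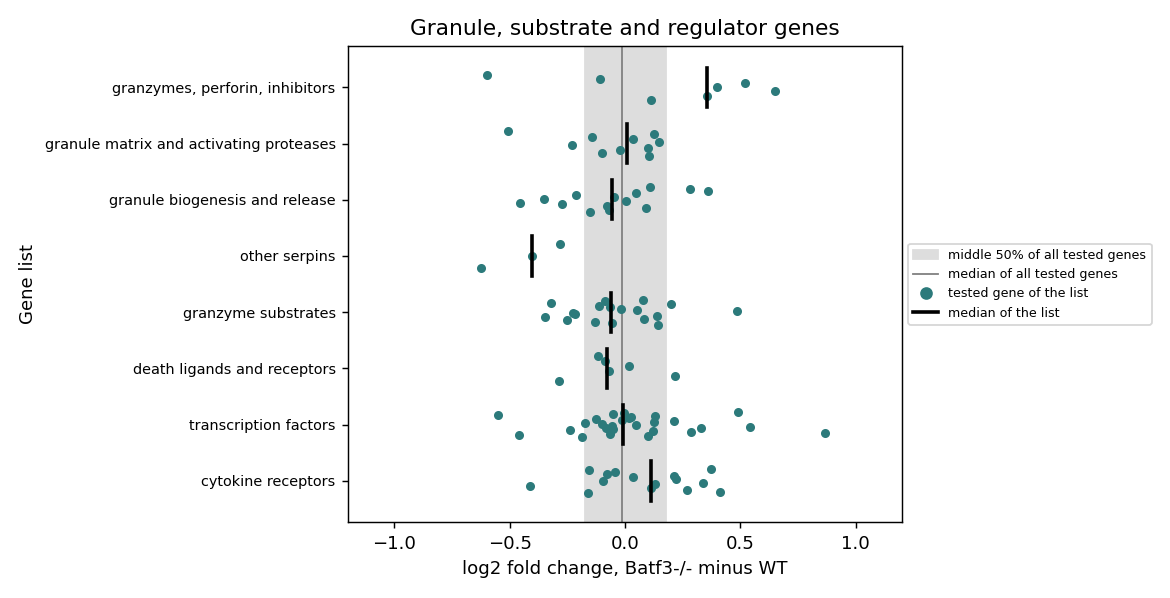
Log2 fold change of Batf3-/- minus WT for the tested genes of each list (points) with the median of the list (black bar), beside the middle 50% (grey band, -0.17 to 0.18) and the median (grey line) of all tested genes. Batf3, at -6.84 among the transcription factors, lies beyond the axis, and no other point passed the test.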

How the data were processed

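The 10 genes and all gene lists were chosen with earlier results of these data known. The deposited table holds RSEM expected counts per gene, made by the authors with STAR 2.5.0 and RSEM 1.2.25 on GRCm38, per the submitters' processing notes; libraries were stranded and polyadenylated, per the labels' protocols. Annotation release and strand setting: not given in the sources used here. The 92 spike-in entries, each at 0, were left out.

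Counts were rounded and fitted with edgeR 4.0.16 in R 4.3.3 (filterByExpr at a minimum count of 10, TMM, robust dispersions, glmQLFit with legacy=FALSE, glmQLFTest, two-sided), genotype being the only term, on all genes, with Benjamini-Hochberg adjustment at 0.05. CPM is TMM-normalized, fold changes are Batf3-/- over WT, and 95% intervals come from the SE and the test's degrees of freedom. Lengths (union of exons) and positions came from GENCODE M21 (GRCm38). The pipeline was tested on simulated counts, with changes larger than any estimated for the tested members and no effect of replicate number. Smaller changes were not simulated. Replicates differed by more than sampling noise (chi-square per degree of freedom 24.0 in Batf3-/- and 66.3 in WT). Beside the members, the text names list genes past the threshold or, with none, up to 2 with the smallest p. Named in addition were Cd4, Cd8a, Gzmf, Foxp3, Eomes and genes at 0 in all libraries. Alternatives were DESeq2 size factors, upper-quartile scaling, 2 other filters, DESeq2 1.42.0, limma-voom (limma 3.58.1), each library left out, a replicate block, a GC correction, the longest transcript as length, and TMM library sizes for granzyme sums.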

Additional observations from a re-analysis of the deposited data

How the results depend on the processing

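None of the 7 tested members passed under any of the 12 alternative fits (adjusted p of at least 0.114, the value of Serpinb6b without WT replicate 2). Gzmb ranged from 0.25 to 0.46. With all 4 libraries kept, its unadjusted p in edgeR was 0.0425 with the replicate block and 0.0156 with the GC correction. Over all genes, 1025 of 12135 and 354 of 12105 had an unadjusted p under 0.05 in these fits. Of 82 log2 fold changes of members, 76 kept the direction and 6 changed it: Gzmc (-2.03) and no other without Batf3-/- replicate 1, Ctsw (-0.10) and Serpinb6b (0.05) without Batf3-/- replicate 2, Serpinb6b (0.41) without WT replicate 1, and Ctsw (-0.013) and Serpinb6b (0.043) with the GC correction. With 1 library left out, Gzmc ranged from -2.03 to 1.73, Ctsw from -0.10 to 0.32 and Serpinb6b from -0.50 to 0.41. Gzmc and Prf1 could not be fitted at 1 CPM in 2 libraries, since each reached 1 CPM in a single library.

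Over all genes the calls were 10 higher and 6 lower. They were 20 and 8 in DESeq2 and 7 and 5 in edgeR with the GC correction. Leaving out 1 library gave 11 to 301 higher and 7 to 252 lower. A replicate block gave 81 and 31, and the log2 fold changes of Gzmb, Serpinb9 and Serpinb6b were 0.36, -0.68 and -0.05, none past the threshold. That fit has 1 residual degree of freedom per gene, and for most genes it took the common trend as the spread. Same-numbered samples share a title prefix, whose meaning the labels do not give, and their Xist level. Their deviations from the genotype means correlated at 0.105 over genes, and no label states that a number marks a shared batch, litter or day. Depth limits Gzma, Gzmc, Gzmk, Gzmm and Prf1, at 41 counts or fewer in each library. With TMM library sizes the summed granzyme counts averaged 110.3 and 86.1 CPM in Batf3-/- and WT. With the longest transcript as length, Ctsw averaged 20.9 and 19.2 CPM per kb in Batf3-/- and WT and Nkg7 averaged 2.88 in Batf3-/-, while Serpinb6b and Ctsw, and Gzmc and Gzmm, changed places in Batf3-/- replicate 2.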
